A study of Mus musculus with 10 samples.

Results

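Axon guidance ligands and receptors were followed in the mouse spinal cord after a sham operation and after injury. The genes were chosen by symbol alone, as semaphorins, plexins, neuropilins, ephrins, Eph receptors, Slits, Robos, netrins, netrin-G proteins, Unc5 receptors and Dcc. Of 71 symbols of these families in RefSeq, 61 had a gene-level probe group (a transcript cluster) that was annotated to them alone, out of 14860 such genes in all. Where a gene had several clusters (Epha2), the one with the highest mean signal was used. A gene was kept if its highest signal on the 5 arrays reached 3.79 on the log2 scale, the 40th percentile over the gene-level table, which 59 of the 61 genes and 11280 genes in all did. Epha1 and Robo3 did not pass, and their highest signals were 2.85 and 2.97, while the lowest highest signal among the genes kept was 4.49 (Epha8). Nrp2, Ntng2 and Ephb6 share their clusters with other genes and were not used, and Efna3, Ephb2, Ntn5, Plxnb3, Sema3g, Sema4c and Slit3 were not analysed here.

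All animals were wild-type ICR mice, an outbred laboratory stock, given as 4 weeks old in every group. Tissue was the cord at thoracic level T10, from mice with a sham operation (no time given) and from mice 1 day, 3 days, 1 week or 3 weeks past spinal cord injury, the kind and force of which the labels do not give. Each group was 1 pool of RNA from 3 mice on Affymetrix whole-transcript arrays, summarised once per gene and once per probe set, the small group of probes lying in an exon. Because a group is 1 pool, nothing could be tested, no p-value is given, and the spread between mice is unknown. Here "rose" and "fell" mean a difference from sham of at least 2-fold (1 on the log2 scale) at the gene level. Beside a gene-level difference stands the median ± SD over the gene's exon-level probe sets, a spread between probes on 1 pair of arrays. Every comparison with sham uses the same sham array.

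Axon guidance molecules are read by the growth cone, the motile tip of a growing axon, as attraction or repulsion. Semaphorins act through plexins, the secreted class 3 members mostly together with neuropilins. Ephrins bind Eph receptor tyrosine kinases, Slits bind Robo receptors, and netrins bind Dcc, which mediates attraction, and Unc5 receptors, which mediate repulsion. In the developing cord these systems guide commissural and corticospinal axons at the midline. In the adult several of them are also made by neurons, oligodendrocytes, astrocytes, vessels, meninges and macrophages.

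Spinal cord markers were present in sham. The 11 measured neuron markers had a mean log2 signal of 10.2, and the 9 oligodendrocyte and myelin markers one of 10.7. The neuron mean moved to 9.60, 9.07, 7.84 and 9.27 at the 4 successive times, with 11 of 11 markers at least 2-fold lower at 1 week and 4 of 11 at 3 weeks. Myelin markers had 7 of 9 lower at 1 week. Microglia and macrophage markers (11 measured) rose from a mean of 5.15 to 8.98 at 1 week, with 10 of 11 higher. At 1 day this list was split, with 6 of 11 higher and 3 lower (Csf1r, Cx3cr1 and P2ry12). P2ry12 was at -1.98 from sham at 1 day and at 0.03, 0.05 and 0.36 afterwards. Fibroblast and meningeal markers (10 measured) rose from 5.99 to 10.02 at 1 week, with 10 of 10 higher. Skeletal muscle markers had a mean of 4.40 in sham and of 8.26 at 1 day, with 8 of 8 higher. The 4 Schwann cell markers went from 5.90 to 7.998 at 3 weeks. The mean of the 7 astrocyte markers lay between 8.51 and 9.49, with 2 of 7 lower at 3 days (Slc1a3 and Gja1). The mean of the 8 endothelial markers lay between 5.87 and 6.34, with 3 of 8 higher at 1 and 3 days (Cdh5, Pecam1 and Emcn) and Cdh5 higher at all 4 times. These lists moved beside the guidance genes, and their part in the results below was not tested. In tissue RNA, fewer cells of a type and less RNA per cell cannot be told apart.

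More guidance genes fell than rose in the first week, and more rose than fell at 3 weeks as deposited. At 1 day 7 of the 59 genes were at least 2-fold lower than sham, which is 11.9%, against 4.09% of all 11280 genes, and 0 were higher, against 3.79%. At 3 days 17 were lower (28.8%, against 9.57% of all genes) and 2 higher (3.39%, against 5.93%). At 1 week 18 were lower (30.5%, against 13.9%) and 6 higher (10.2%, against 11.3%). At 3 weeks 6 were lower (10.2%, against 3.4%) and 10 higher (16.9%, against 8.5%). The share of lower genes was thus above the background at all 4 times, and the share of higher genes only at 3 weeks. Counted over any time, 35 of 59 passed 2-fold (59.3%, against 30.3% of all genes), 25 of them only downwards, 9 only upwards and 1, Plxnc1, both ways. The median log2 difference of the 59 genes was -0.50, -0.55, -0.43 and -0.02 at the 4 times, against -0.15, -0.12, -0.06 and 0.00 over all genes.

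**Figure D1:**
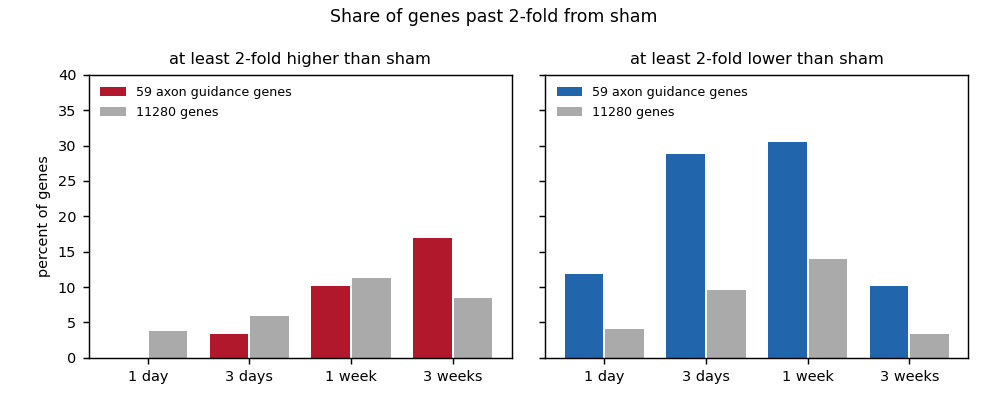
Percent of genes at least 2-fold higher (left) or lower (right) than sham at each time, for the 59 axon guidance genes (coloured bars) and for 11280 genes (grey bars), 1 array per group. The guidance genes lie above all genes among lower calls at each time (30.5% against 13.9% at 1 week) and among higher calls at 3 weeks (16.9% against 8.5%).

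The scaling of the arrays changed some of these counts. Quantile normalization left 3 genes lower at 1 day and 9 at 3 days, against 2.12% and 6.79% of all genes. It moved the all-gene median by 0.14 at 1 day, by 0.10 at 3 days and by -0.11 at 3 weeks. Centring each array on its median moved that of 3 weeks by -0.16 and gave 10 lower and 8 higher genes there. The shares of all genes were then 5.92% lower and 7.07% higher, against 3.4% and 8.5% as deposited. Higher calls thus made up 44.4% of the guidance gene calls at 3 weeks, against 62.5% as deposited and 50% after quantile normalization. The 6 genes higher at 1 week were the same under both scalings.

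The exon level gave a similar picture, with more lower calls in the first week. By the median of their probe sets, 10 of 59 genes were lower at 1 day (5.54% of all genes), 18 at 3 days (11.8%), 22 at 1 week (15.6%) and 6 at 3 weeks (3.65%). All genes are here the 14378 with a probe set past the exon-level filter, while the 59 were kept by the gene-level filter. Higher by this measure were 0 at 1 day and 2 at 3 days, against 4.69% and 7.75% of all genes. At 1 week 6 were higher (13.1% of all genes), and at 3 weeks 9 (9.19%). The 18 genes lower at 1 week had 399 probe sets, of which 395 were below sham, and the 6 higher genes had 182, of which 179 were above. Both sets were picked by their gene-level difference at that same time, so this shared direction is a description and not a separate check. Across the 59 genes, the gene-level and exon-level differences had a Pearson correlation of 0.99 at 1 week, the highest, and 0.90 at 1 day, the lowest. These are descriptions, since the labels do not say whether the summaries come from the same hybridisations. At 1 day the probe set medians of Plxnc1 and Ephb1 did not give their calls.

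**Figure D2:**
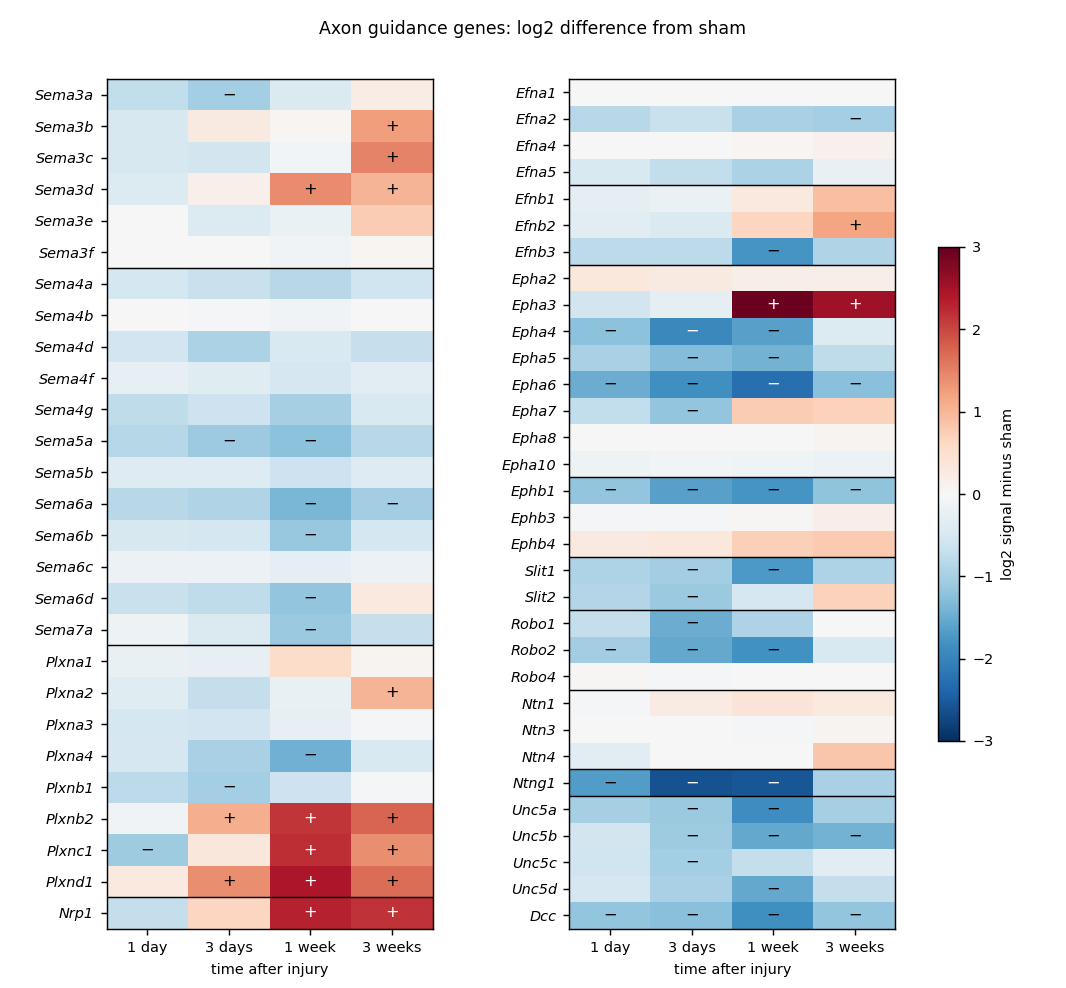
Log2 difference from sham (colour) for each of the 59 axon guidance genes (rows, with lines between families) at the 4 times after injury (columns). A plus or minus marks a difference of at least 2-fold; plexins B2, C1 and D1, Nrp1 and Epha3 are higher at 1 week and 3 weeks, while most marked cells in the other families are lower.

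The promoters of the genes with the 2 largest rises (Epha3 and Plxnd1) and the 2 largest falls (Ntng1 and Epha6) are shown because they mark the opposite ends of the response. They run from 250 bases before to 50 bases after the start and come from RefSeq on GRCm38.p6, which is not the build of the arrays, for 49 of the 59 genes. Capitals mark matches on either strand to the TATA box spelled TATAAA, to the GC box spelled GGGCGG, to the AP-1 core spelled TGANTCA, to the core of PU.1 sites spelled GAGGAA and to the CCAAT box. The 4 genes and the motifs were picked after the values were seen.
Epha3, chr16:63864126-63864425, minus strand: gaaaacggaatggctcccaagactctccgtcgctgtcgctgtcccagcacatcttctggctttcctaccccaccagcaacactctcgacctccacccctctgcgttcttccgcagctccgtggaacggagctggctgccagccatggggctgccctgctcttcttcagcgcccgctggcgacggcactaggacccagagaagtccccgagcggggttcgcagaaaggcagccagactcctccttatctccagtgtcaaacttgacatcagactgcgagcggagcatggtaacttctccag
Plxnd1, chr6:115994956-115995255, minus strand: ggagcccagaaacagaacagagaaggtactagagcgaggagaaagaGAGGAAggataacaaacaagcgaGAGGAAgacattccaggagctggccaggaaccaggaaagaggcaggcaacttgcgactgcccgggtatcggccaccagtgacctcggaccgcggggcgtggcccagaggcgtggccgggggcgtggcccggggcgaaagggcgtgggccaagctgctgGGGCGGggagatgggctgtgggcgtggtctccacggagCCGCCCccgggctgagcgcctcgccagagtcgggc
Ntng1, chr3:110143423-110143722, minus strand: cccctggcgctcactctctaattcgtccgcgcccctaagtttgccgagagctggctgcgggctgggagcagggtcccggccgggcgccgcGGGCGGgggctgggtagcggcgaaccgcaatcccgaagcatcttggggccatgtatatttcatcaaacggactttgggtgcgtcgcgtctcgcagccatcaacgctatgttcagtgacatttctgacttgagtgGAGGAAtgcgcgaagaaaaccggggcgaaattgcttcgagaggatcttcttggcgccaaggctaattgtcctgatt
Epha6, chr16:60605482-60605781, minus strand: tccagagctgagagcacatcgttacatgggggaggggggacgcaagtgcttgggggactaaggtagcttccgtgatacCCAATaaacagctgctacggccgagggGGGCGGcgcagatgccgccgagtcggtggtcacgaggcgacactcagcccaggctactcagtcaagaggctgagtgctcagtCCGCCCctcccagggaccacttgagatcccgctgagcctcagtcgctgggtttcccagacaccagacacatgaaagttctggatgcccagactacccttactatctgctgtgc

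Epha3 held none of the 5 motifs in this window. Plxnd1 held 2 GC boxes and 2 PU.1 cores, Ntng1 held 1 of each, and Epha6 held 2 GC boxes and 1 CCAAT. None of the 4 held a TATA box or an AP-1 core. GC content was 60.7% in Epha3, 67.0% in Plxnd1, 59.7% in Ntng1 and 60.3% in Epha6. A GC box was found in 36 of the 49 guidance gene promoters (73.5%), against 63.7% of 9052 promoters of genes that passed the filter and 35.9% of all 27025. TATA boxes were in 2 of 49 (4.08%, against 7.49% and 14.2%), AP-1 cores in 1 (2.04%, against 5.06% and 7.93%), PU.1 cores in 14 (28.6%, against 26.5% and 28.3%) and CCAAT in 14 (28.6%, against 38.2% and 37.9%). A match of letters is not a binding site, and the absence of a match says only that the letters are not in this window.

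Among secreted class 3 semaphorins, 6 of which were measured, the changes came late and upwards. At 3 weeks 3 of 6 were higher (Sema3b, Sema3c and Sema3d), which is 50%, against 8.5% of all genes. At that time 0 were lower, against 3.4%. At 1 and 3 days the single call was a fall of Sema3a at 3 days (16.7%, against 9.57% of all genes). Sema3c, a ligand known for roles in heart outflow and neural crest guidance, had signals of 5.99 in sham and then 5.50, 5.44, 5.91 and 7.49 at the successive times. The first 4 arrays thus lay within 0.55 of sham, and the rise of 1.49 (probe sets 1.38 ± 0.39, n = 22) was at 3 weeks. Sema3b had 6.13, 5.65, 6.40, 6.18 and 7.38, lowest at 1 day and highest at 3 weeks, and its 3 week difference was 1.24 (1.82 ± 0.83, n = 21). Sema3d rose earlier, with 5.53, 5.12, 5.68, 6.95 and 6.54 on the 5 arrays and a difference of 1.42 at 1 week (1.82 ± 0.43, n = 19). Its 3 week difference of 1.01 was the smallest called rise at that time and was below 2-fold under both scalings.

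Sema3a, the prototype chemorepellent that collapses growth cones of sensory and other axons, took another course. Its signals were 6.31 in sham and then 5.57, 5.28, 5.88 and 6.52 at the successive times. The low point at 3 days was -1.03 from sham at the gene level (-1.68 ± 0.62, n = 18, with 18 of 18 probe sets below sham), and 3 weeks was within 0.21 of sham. The 3 day fall was under 2-fold after quantile normalization. Sema3e, a ligand of plexin-D1, went from 4.32 in sham to 5.07 at 3 weeks, a difference of 0.75, and Sema3f stayed between 4.92 and 5.08.

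The membrane-bound semaphorins of classes 4 to 7 went the other way. All 12 measured members were below sham at 1 week, 5 of them by at least 2-fold (41.7%, against 13.9% of all genes). At the 4 times 0 were at least 2-fold higher, against 3.79%, 5.93%, 11.3% and 8.5% of all genes. Sema6a, Sema6b and Sema6d, transmembrane ligands of class A plexins, fell by 1.38, 1.15 and 1.19 at 1 week. Sema5a, which carries thrombospondin repeats, fell by 1.23 and the GPI-anchored Sema7a by 1.11. Sema6a signals were 8.70, 7.86, 7.80, 7.33 and 7.67 from sham to 3 weeks, so that all 4 injury arrays lay below sham (1 week probe sets -1.25 ± 0.77, n = 23). Sema6d signals were 9.01, 8.35, 8.24, 7.81 and 9.29. Its lowest value was at 1 week too, but at 3 weeks Sema6d was above sham by 0.29 (0.29 ± 0.26, n = 27) and had gained 1.48 in that step.

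**Figure D3:**
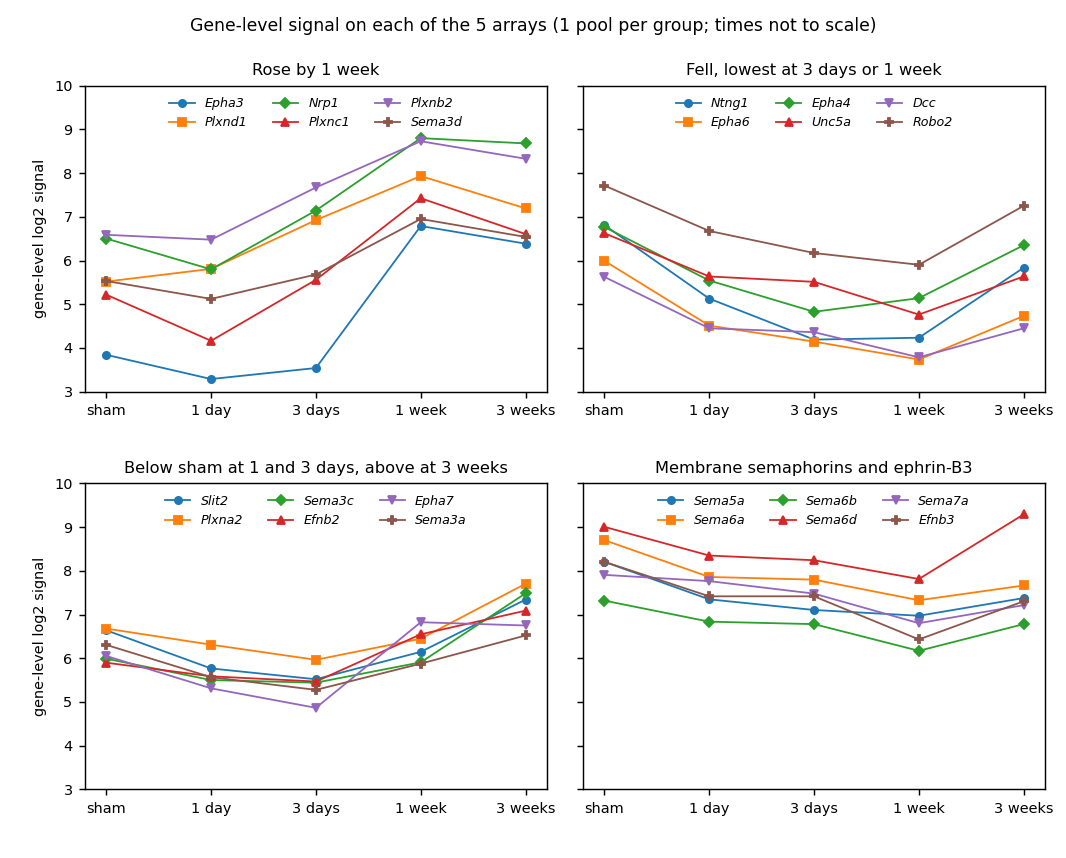
Gene-level log2 signal (vertical axis) of 24 axon guidance genes on the 5 arrays (horizontal axis, sham and 4 times, not to scale), in 4 panels by course. The 5 receptors and Sema3d at top left reach their highest value at 1 week, the genes at top right lie below sham on each injury array, those at bottom left end above sham at 3 weeks, and those at bottom right have their lowest value at 1 week; levels of different genes are not comparable.

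Sema5a signals were 8.21, 7.35, 7.10, 6.97 and 7.38, a fall of at least 2-fold at 3 days (-1.10) and 1 week, the 3 day call not holding after quantile normalization. Sema7a, which acts through plexin-C1 and integrins, had 7.91, 7.77, 7.48, 6.80 and 7.22, lowest at 1 week (-1.13 ± 0.33, n = 14); after quantile normalization the fall was under 2-fold. Sema6b had 7.32, 6.84, 6.78, 6.17 and 6.78. Of those that never passed 2-fold, Sema4g came closest, with 5.11 in sham, 4.11 at 1 week and a difference of -0.99 (probe sets -1.08 ± 0.89, n = 18). Sema4d, a ligand of plexin-B1 made by oligodendrocytes and immune cells, had 7.86 in sham and 6.92 at 3 days, a difference of -0.95. Sema4b stayed within 0.12 of sham on all arrays.

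The semaphorin receptors went both ways. Plexins B2, C1 and D1, neuropilin-1 and, at 3 weeks, plexin-A2 rose, while plexins A4 and B1 fell, and C1 fell at 1 day. Plxnd1, the receptor of Sema3e with known roles in vessel patterning, had signals of 5.52 in sham and then 5.81, 6.93, 7.93 and 7.20 at the successive times. Each injury array was above sham, and the 1 week signal was 5.33-fold that of sham, a difference of 2.41 (2.69 ± 1.07, n = 44). Plxnb2, a widely expressed receptor for class 4 semaphorins, had 6.59, 6.48, 7.67, 8.73 and 8.33. It was level with sham at 1 day (-0.11) and rose at 3 days (1.08), 1 week (2.14, probe sets 2.18 ± 0.64, n = 48) and 3 weeks (1.74).

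Plxnc1, the receptor of Sema7a, first fell and then rose. Its signals were 5.22 in sham and then 4.16, 5.56, 7.43 and 6.61 at the successive times. The 1 day difference of -1.06 (-0.79 ± 0.74, n = 29) was under 2-fold after quantile normalization (-0.96) and after centring (-0.97), and the 1 week difference was 2.21 (2.34 ± 0.76). Nrp1, the co-receptor for class 3 semaphorins and for vascular endothelial growth factor, had 6.50, 5.80, 7.15, 8.80 and 8.68. It was below sham at 1 day (-0.70) and 4.92-fold higher at 1 week, a difference of 2.30 (2.34 ± 0.57, n = 22, with 22 of 22 probe sets above sham), and still 2.18 above at 3 weeks.

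Of the class A plexins, Plxna4, which with neuropilin-1 forms a receptor for Sema3a, fell by 1.44 at 1 week, with signals of 7.46, 6.95, 6.48, 6.02 and 6.99 (probe sets -1.53 ± 0.56, n = 34). Plxna2 had 6.68, 6.31, 5.96, 6.45 and 7.70, lowest at 3 days and above sham only at 3 weeks, by 1.03 (0.95 ± 0.33, n = 39), a call that centring and the probe set median did not give. Plxna1 lay between 6.77 and 7.56 and Plxna3 between 4.22 and 4.78, neither past 2-fold. Plxnb1, the receptor of Sema4d, had 7.16, 6.36, 6.14, 6.53 and 7.09, with a fall of 1.02 at 3 days (-1.09 ± 0.64, n = 45) that both scalings took below 2-fold, and was back within 0.07 of sham at 3 weeks. At 1 week, when plexins B2, C1 and D1 and Nrp1 were high, the macrophage and the fibroblast marker lists were at their highest means.

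Ephrins of the A class, GPI-anchored ligands, hardly passed 2-fold. Efna2 fell by 1.01 at 3 weeks, with signals of 5.27, 4.44, 4.60, 4.30 and 4.26, but rests on 1 probe set at the exon level (-0.94). Efna5, a repellent in topographic mapping, had 6.03, 5.57, 5.29, 5.07 and 5.81, with a 1 week difference of -0.96 by gene and of -1.28 ± 0.56 by its 9 probe sets. Efna1 was listed at 5.42 on all 5 arrays, and its 8 probe sets had medians between -0.07 and 0.19.

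The 3 ephrins of the transmembrane B class diverged. Efnb3, the midline ligand that keeps corticospinal axons on their own side and a myelin-associated inhibitor in mice, fell to 1 week. It had signals of 8.21 in sham, 7.42 at 1 and 3 days, 6.43 at 1 week and 7.30 at 3 weeks, 3.43-fold lower than sham at 1 week (-1.78, probe sets -1.81 ± 0.52, n = 10). Efnb2, found on arterial endothelium and on reactive astrocytes, rose late, with 5.90, 5.59, 5.47, 6.55 and 7.09 and a difference of 1.19 at 3 weeks (1.42 ± 0.56, n = 11). Efnb1 made no call and went from 5.53 in sham to 6.44 at 3 weeks (0.91, probe sets 0.77 ± 0.96, n = 15).

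Eph receptors held the largest rise of all guidance genes. Epha3, a receptor for ephrin-A5, had signals of 3.84 in sham and then 3.29, 3.54, 6.79 and 6.39 at the successive times. The first 3 arrays lay near or under the filter level of 3.79 and the last 2 far above it. The 1 week signal was 7.71-fold that of sham, a difference of 2.95 (probe sets 3.67 ± 1.29, n = 20, from 0.57 to 5.90), and the 3 week difference was 2.54 (3.25 ± 1.21). Since the sham signal was close to the filter level, the size of the fold is rough. Epha7 had 6.05, 5.31, 4.87, 6.82 and 6.75: it fell by 1.19 at 3 days (-1.20 ± 0.57, n = 21) and was above sham by 0.77 at 1 week, short of 2-fold.

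Epha4, Epha5, Epha6 and Ephb1 fell. Epha4, which binds ephrins of both classes and is required for the midline barrier to corticospinal axons, had signals of 6.77 in sham and then 5.54, 4.83, 5.14 and 6.35 at the successive times. It was lowest at 3 days, at 3.84-fold below sham (-1.94, probe sets -2.11 ± 0.65, n = 19), and within 0.42 of sham at 3 weeks. The 1 day falls of Epha4 (-1.22) and Ephb1 (-1.18) were under 2-fold after quantile normalization. The probe set median of Ephb1 did not give its 1 day call either. Epha6 had 5.99, 4.51, 4.15, 3.74 and 4.73 and was lower at all 4 times, most at 1 week (-2.26, probe sets -2.72 ± 1.07, n = 26), when its signal was under the filter level. Its 3 week difference was -1.26 at the gene level, but its probe set median was short of 2-fold there. Ephb1, which steers retinal axons away from the midline, was also lower at all 4 times, with 7.04, 5.85, 5.41, 5.26 and 5.84 (-1.78 at 1 week, -1.88 ± 0.85, n = 18).

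Epha5 had 6.94, 5.98, 5.65, 5.53 and 6.18, a fall at 3 days (-1.30) and 1 week (-1.42, probe sets -1.59 ± 0.83, n = 18). Ephb4, the venous receptor of ephrin-B2, moved upwards without a call, from 4.47 in sham to 5.26 at 3 weeks (0.79, probe sets 0.96 ± 1.02, n = 18). Epha2, Epha8, Epha10 and Ephb3 stayed within 0.32 of sham at every time. The ephrin that binds EphA4 at the midline, Efnb3, and Epha4 itself were thus both below sham on all 4 injury arrays.

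Slit2 and Slit1, secreted repellents of the floor plate, separated after 3 days. Slit1 had signals of 6.08, 5.15, 5.05, 4.37 and 5.15 and fell to 3.28-fold below sham at 1 week (-1.71, probe sets -1.93 ± 1.00, n = 35). Slit2 had 6.64, 5.77, 5.52, 6.15 and 7.34, lowest at 3 days (-1.12, -1.09 ± 0.61, n = 43) and above sham by 0.70 at 3 weeks (0.63 ± 0.39), a gain of 1.195 from 1 week. The 3 day falls of both were under 2-fold after quantile normalization.

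Their neuronal receptors Robo1 and Robo2 fell and came back. Robo2 had 7.72, 6.68, 6.17, 5.90 and 7.25, which is 3.51-fold below sham at 1 week (-1.81, probe sets -1.81 ± 0.56, n = 24, all below sham). Its 1 day fall of 1.04 was under 2-fold under both scalings. Robo1 had 7.64, 6.91, 6.14, 6.72 and 7.62, lowest at 3 days (-1.50, -1.57 ± 0.80, n = 33) and level with sham at 3 weeks (-0.02). Robo4, an endothelial receptor, stayed between 4.67 and 4.76.

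Dcc and the Unc5 receptors were below sham throughout, while none of the 3 netrins passed 2-fold (30.3% of all genes did at some time). All 5 of these receptors were below sham at all 4 times, against 39.1% of all genes. At least 2-fold lower were 4 of 5 at 3 days, 4 of 5 at 1 week and 2 of 5 at 3 weeks. The shares of all genes were 9.57%, 13.9% and 3.4%. After quantile normalization 1 of 5 was past 2-fold at 3 days, 4 at 1 week and 3 at 3 weeks. Neo1, a further netrin receptor counted here with the partners, was at -0.47, -0.47, -0.33 and -0.06, short of 2-fold. Dcc had signals of 5.63 in sham and then 4.45, 4.36, 3.79 and 4.45 at the successive times, lower at all 4 times and by 1.84 at 1 week (probe sets -2.19 ± 0.95, n = 30). Unc5a, which is found mainly in neurons, had 6.63, 5.64, 5.51, 4.76 and 5.64, 3.63-fold below sham at 1 week (-1.86, -1.94 ± 0.93, n = 21).

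Unc5b, a receptor also known from vessels and oligodendrocytes, had 7.37, 6.81, 6.29, 5.83 and 5.95. It was nearly as low at 3 weeks (-1.42, probe sets -1.46 ± 0.70, n = 23) as at 1 week (-1.54). Unc5d had 5.65, 5.16, 4.67, 4.11 and 4.95 and was lowest at 1 week (-1.54, probe sets -1.44 ± 0.62, n = 17). Unc5c had 6.38, 5.79, 5.35, 5.67 and 6.04 and was lowest at 3 days (-1.03, -1.03 ± 0.61, n = 20). Ntn1, the attractant of commissural axons, lay between 5.74 and 6.18 with a largest difference of 0.38 (probe sets 0.84 ± 0.96, n = 6), and Ntn3 between 4.41 and 4.52. Ntn4, a basement membrane netrin, was at 4.98 in sham and 5.81 at 3 weeks (0.83, probe sets 0.55 ± 0.54, n = 11).

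Ntng1, a GPI-anchored netrin relative that binds the synaptic adhesion protein NGL-1 and not the classical netrin receptors, had the largest fall of all guidance genes. Its signals were 6.81 in sham and then 5.13, 4.19, 4.23 and 5.84 at the successive times. The 3 day signal was 6.14-fold below sham (-2.62), and the probe sets gave a larger difference (-3.38 ± 0.72, n = 11, from -4.01 to -1.50). At 3 weeks it was still 0.97 below sham in the gene-level table and 1.26 ± 0.59 below by its probe sets, although it had gained 1.60 since 1 week. Both scalings put the 3 week value past 2-fold. Lrrc4c, the gene of NGL-1, had 6.90, 5.40, 4.82, 5.02 and 5.58 and was likewise lowest at 3 days (-2.08).

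**Figure D4:**
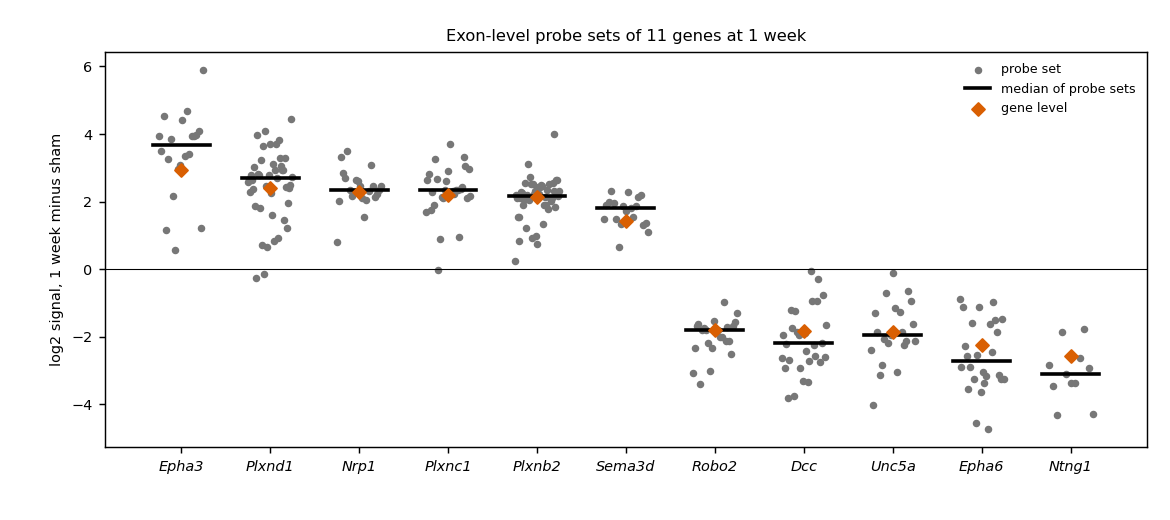
Log2 difference of 1 week minus sham (vertical axis) for each exon-level probe set (grey points), their median (black line) and the gene-level value (orange diamond) of 11 axon guidance genes. Nearly all probe sets of a gene lie on the same side of 0, and for Epha3 and Ntng1 the probe set median is farther from 0 than the gene-level value.

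Some known ligand and receptor pairs are set side by side, as examples and not as a full list. At 1 week Sema7a was at -1.11 from sham and its receptor Plxnc1 at 2.21, so ligand and receptor went opposite ways. Sema3a was at -0.43 while its receptor parts Nrp1 and Plxna4 were at 2.30 and -1.44. Sema3e was at -0.20 and Plxnd1 at 2.41. Efna5 was at -0.96 and Epha3 at 2.95. In other pairs both sides were lower: Slit1 at -1.71 with Robo2 at -1.81, Efnb3 at -1.78 with Epha4 at -1.63, and Sema6a at -1.38 with Plxna4. Both sides were higher for Sema3d at 1.42 with Nrp1, and, short of 2-fold, for Efnb2 at 0.65 with Ephb4 at 0.72. Ntn1 was at 0.38 beside Dcc at -1.84 and Unc5a at -1.86.

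By course, 30 of 59 genes (50.8%) were below sham on all 4 injury arrays, against 39.1% of all genes, and 3 (Epha2, Ephb4 and Plxnd1) were above sham on all 4, which is 5.08% against 17.7%. After quantile normalization the first count was 29, and after centring 30. The lowest of the 5 arrays was 1 week for 25 genes (42.4%, against 31% of all genes), 3 days for 16 (27.1%, against 19.2%) and 3 weeks for 2. A further 11 genes (18.6%, against 14.4%) were below sham at 1 and 3 days and above it at 3 weeks. Of these, Efnb1, Efnb2, Epha3, Epha7, Plxna2, Sema3a, Sema3c, Sema6d and Slit2 had this course under both scalings too, where the share of all genes was 7.19% and 7.37%.

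Between 1 week and 3 weeks the guidance genes moved upwards. At least 2-fold higher at 3 weeks than at 1 week were 8 of 59 genes (13.6%, against 7.06% of all genes), and 0 were lower, against 3.48%. By probe set medians 14 were higher (9.47% of the 14378 genes at the exon level) and 0 lower (4.47%). The 8 genes were Ntng1 (1.60), Sema3c (1.58), Sema6d (1.48), Robo2 (1.35), Plxna2 (1.26), Epha4 (1.21), Slit2 (1.195) and Sema3b (1.19), and the same 8 were called under both scalings. Over this step 9 of 11 neuron, 2 of 4 Schwann cell and 2 of 7 astrocyte markers were also at least 2-fold higher. At least 2-fold lower were 4 of 11 macrophage, 2 of 8 muscle and 1 of 8 endothelial markers. Fibroblast markers had 1 of 10 each way, and myelin markers 0 of 9. The part of these lists in the 8 calls was not tested. Of the 18 genes lower at 1 week, 18 were nearer to sham at 3 weeks, as were 1563 of 1572 over all genes. After centring 17 of 18 were nearer (1535 of 1560 over all genes), and after quantile normalization 16 of 17 (1411 of 1433). No longer 2-fold lower were 13 of 18, against 1201 of 1572, so both shares were near those of all genes. Dcc, Epha6, Ephb1, Sema6a and Unc5b were still 2-fold lower, Epha6 not so by its probe set median. After centring 9 of 18 were still 2-fold lower (640 of 1560 over all genes), and after quantile normalization 8 of 17 (442 of 1433). Ntng1, Slit1 and Unc5a were among them in both. As deposited, the median gene of the 18 kept 53.3% of its 1 week log2 difference, against 46.0% for the 1572 genes lower in all.

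As deposited, the 6 genes that were higher at 1 week kept more of their difference. All 6 (Epha3, Nrp1, Plxnb2, Plxnc1, Plxnd1 and Sema3d) were still at least 2-fold higher at 3 weeks as deposited, and 5 of 6 under either scaling. Of all genes higher at 1 week, 751 of 1273 were as deposited. After quantile normalization 694 of 1317 were, and after centring 667 of 1290. The median gene of the 6 kept 76.2% of its 1 week difference, against 64.8% for all higher genes. These kept shares are given as deposited only, where the 3 week array had a median of 4.76 and sham one of 4.60. Over the same step the macrophage marker mean went from 8.98 to 8.14 and the fibroblast mean from 10.02 to 9.86.

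Partners of the guidance receptors also had more falls than rises in the first week. Of 23 measured co-receptors and partners, 6 were lower and 1 higher at 1 day, 7 lower and 1 higher at 3 days, 9 lower and 2 higher at 1 week, and 2 lower and 3 higher at 3 weeks. The lower calls are 26.1%, 30.4%, 39.1% and 8.7% of the 23, against 4.09%, 9.57%, 13.9% and 3.4% of all genes. The higher calls are 4.35%, 4.35%, 8.7% and 13%, against 3.79%, 5.93%, 11.3% and 8.5%. Counts of this list and of the effectors below are given as deposited only. Their median differences were -0.47, -0.49, -0.33 and -0.12. Dscam, an adhesion molecule that also binds netrin-1, fell by 1.96 at 1 week, and Lrrc4c by 1.503 at 1 day and 1.31 at 3 weeks. Met, the hepatocyte growth factor receptor that associates with class B plexins, was higher at all 4 times, by 1.41 at 1 day and 1.42 at 3 weeks. Flrt2, a ligand of Unc5 receptors, was at -1.22 at 1 day and rose by 1.36 at 1 week. All 3 netrin-G ligand genes of the family, Lrrc4c (-1.88), Lrrc4 (-1.82) and Lrrc4b (-1.51), were lower at 1 week.

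Of 37 measured cytoplasmic effectors, 2 were lower at 1 day and 5 at 3 days. Lower at 1 week were 12, with 1 higher, and 2 were lower at 3 weeks. These are 5.41%, 13.5%, 32.4% and 5.41% of the 37, against the same 4.09%, 9.57%, 13.9% and 3.4% of all genes, so the shares at 1 day, 3 days and 3 weeks were near the background. Chn1, the Rac-inactivating chimaerin downstream of EphA4, fell by 2.19 at 1 week, with signals of 9.08, 8.23, 7.65, 6.90 and 8.21. Chn2 fell most at 1 and 3 days (-1.71 and -1.90), and Dpysl5, a collapsin response mediator, had the largest fall at 3 weeks (-1.22). The single rise was Mical1, an actin-disassembling enzyme downstream of plexins, at 1.21 at 1 week. It makes up 2.7% of the 37, against 11.3% of all genes higher at that time. Among 9 myelin-associated inhibitors and their receptors, 3 were lower at 1 week (33.3%, against 13.9% of all genes). Lingo1, a Nogo receptor partner, fell by 2.23 at 1 week and Rtn4rl1 by 1.53 at 1 day and 1.60 at 3 days. Mag, a myelin inhibitor, fell by 1.61 at 1 week and 1.07 at 3 weeks. Ngfr, the p75 receptor, was the single rise of that list, at 1.21, 1.25 and 2.09 from 3 days on.

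The gene-level summary repeats values, which limits small differences and also touches some calls past 2-fold. For 16 of the 59 genes (27.1%, against 34.4% of all genes that passed) at least 2 arrays had an identical signal, such as Unc5a and Slit1 at 1 day and 3 weeks, and Efna1 had 1 value on all 5. Among exon-level probe sets 1.87% repeated a value. A gene-level difference of exactly 0 therefore need not mean that the probe sets agree: Epha8 was at 0.00 at 1 day, while its 8 probe sets had a median of -0.44.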

How the data were processed

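The deposited tables hold log2 signals, 1 per transcript cluster (23332) and 1 per exon-level probe set (229581), for 10 samples, the 5 pools at each level. The sources used here do not say how the authors corrected background, normalized the arrays or combined probes. GCOS and mm8 are named per the submitters' processing notes. The base of the logarithm is not stated and was taken as 2, under which the highest gene-level value of 12.9 is a linear signal of 7752.

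A sample's title gave its group. Values were used as deposited with Python 3.11.15, numpy 2.4.6 and pandas 2.3.3. Symbols came from the platform annotation (14996 clusters with 1 symbol) and were updated through RefSeq of GRCm38.p6. Differences are later minus earlier array. Probe sets reaching 4.85 (40th percentile) on at least 1 array gave exon-level medians and SDs. The code that makes the calls was checked on simulated arrays, a check of the code alone. The number of arrays, 1 per group, limits the precision of every value. Genes past 2-fold at any time are given with their signals, others by range; partners are named by the largest rise and fall per list and time. Guidance genes and lists were chosen with earlier results of these data known; promoters, and Lrrc4 and Lrrc4b, were added after the values were seen. Alternatives were 2 scalings, 2 filters, probe set medians, means over clusters and a rule needing at least 4 probe sets of which 75% move the same way.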

Additional observations from a re-analysis of the deposited data

Results flagged for a closer look

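Plxnc1 was the single guidance gene called in both directions, lower at 1 day (-1.06) and higher at 1 week (2.21) and 3 weeks (1.39) than sham. With 1 array per group this difference between times was not tested. The 1 day value was -0.96 after quantile normalization, -0.97 after centring and -0.79 over probe sets, and the 3 week value lay between 1.23 and 1.48 under the alternatives tried.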

How the results depend on the processing

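Of 10 counts of guidance genes past 2-fold (higher and lower, at 4 times against sham and at 3 weeks against 1 week), 4 moved by more than 1.5 times under some alternative. Quantile normalization gave 3 in place of 7 lower genes at 1 day and 9 in place of 17 at 3 days. The share of all genes lower went from 4.09% to 2.12% and from 9.57% to 6.79%. Centring gave 10 in place of 6 lower genes at 3 weeks, and the share of all genes went from 3.4% to 5.92%. Probe set medians gave 14 in place of 8 genes higher at 3 weeks than at 1 week. No filter, a filter at the 50th percentile, means over clusters and the probe set rule left the 10 counts within 1.5 times. The largest difference of each of the 35 called genes kept its sign, while small differences did not all do so: genes below sham at 3 weeks numbered 30 as deposited, 37 after quantile normalization and 38 after centring. Probe set medians moved Ntng1 at 3 days to -3.38 and Sema3a at 3 days to -1.68, beyond the SD of their probe sets, and the cause was not tested. Efna2 at 3 weeks was -1.10 after quantile normalization, -1.17 after centring and -0.94 by its 1 probe set. Leaving out a replicate was not possible with 1 array per group. No paired analysis was possible because each group has 1 sample at each level. Genes with sham or injury signals near 3.79, among them Epha3, Epha6 and Dcc, have folds of rough size.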
